A study of Mus musculus with 407 samples.

Results

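Pax7, Calcr, Myf5, Spry1, Cdh15, Heyl and Sdc4, 7 genes that mark satellite cells, were followed in whole skeletal muscle of aging mice. The genes were chosen by symbol, and all 7 of 7 were found among the 24458 gene symbols of the count tables, each on 1 row. Total RNA was sequenced from male and female C57BL/6J mice, from the breathing muscle (diaphragm) and from the soleus, gastrocnemius and tibialis anterior of the leg, at 6 months of age and at 5 older ages of 12, 18, 21, 24 or 27 months, with no genetic change and no treatment. This gave 407 libraries in 48 groups of 6 to 10, with 8 libraries per group at 6 months and 10 at 27 months, and each library came from the muscle of 1 animal. The animals were bought and housed for some weeks before collection, and all tissues of an age were taken on the same day, so age and collection day cannot be told apart. No label ties the muscles of a mouse to each other.

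Satellite cells are the stem cells of skeletal muscle. They lie between the fibre membrane and the basal lamina, stay quiescent in resting muscle and divide to repair fibres after injury. Pax7 is the transcription factor that defines the cells and is needed to maintain them. Myf5 is the myogenic factor that primes them for commitment. The calcitonin receptor Calcr, the Notch target Heyl and the growth factor signalling inhibitor Spry1 are linked to quiescence, while M-cadherin (Cdh15) and syndecan 4 (Sdc4) sit at the cell surface, where they hold the cells to fibres and bind growth factors. Cdh15 and Sdc4 are also made by other cells of muscle, and Heyl and Spry1 by cells of the vessel wall and connective tissue, so a bulk level is not a cell count. In libraries of whole muscle, fewer satellite cells and less RNA per cell cannot be told apart.

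Library totals ran from 38583802 to 300089909 counts with a median of 72766895, and the second highest was 104836980. The sum of 6 slow fibre markers was 11063 to 21283 CPM (the count of a gene relative to the total of its library, in the usual cpm unit, with TMM factors that adjust each total for composition) in soleus and 55.4 to 122 CPM in tibialis anterior at 6 months, so these muscles had the fibre markers of their labels. In the diaphragm, 6 libraries were low in GC-rich genes. For each library, the deviation of each gene from its mean over all ages of that sex and muscle was taken. Across genes, its Spearman correlation with gene GC content was -0.78 to -0.57 in these libraries, against -0.19 to 0.42 in the other 92 diaphragm libraries. They are 2 male libraries (6 months replicate 2, 27 months replicate 6) and 4 female libraries (6 months replicate 2, 21 months replicate 0, 24 months replicate 3, 27 months replicate 0). In the gastrocnemius the correlation reached high values of the other sign. It was up to 0.77 in males at 12 months, and up to 0.60 in females and 0.45 in males at 27 months. Libraries high in GC-rich genes were not left out as a set. In 2 male diaphragm libraries liver transcripts were abundant. The library with the highest total, 21 months replicate 3, held 27027 CPM of 8 liver markers, against 16.7 to 235 CPM in the others of its group. The 27 month replicate 6, also low in GC-rich genes, held 10429 CPM, against at most 73.7 CPM in the others of its group. The other 405 libraries held at most 2094 CPM. Where the call of a comparison or trend of the 7 genes changed without these 7 diaphragm libraries, its value without them is given too. List counts that changed are given with the lists.

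The genes differ in the base composition of their start regions, which are shown here for the genes that fell most with age (Calcr, Myf5, Pax7) and for Cdh15, which was called at no age. The stretches are the 250 bases before each start, from RefSeq on GRCm38.p6, 5′ to 3′ on the strand of the gene, and capitals mark the E-box CANNTG, the motif read by myogenic factors. An entry was found for 6 of the 7 genes, with 7 starts in all, since Calcr has 2. Heyl is named only.
Pax7, chr4:139832969-139833218, minus strand: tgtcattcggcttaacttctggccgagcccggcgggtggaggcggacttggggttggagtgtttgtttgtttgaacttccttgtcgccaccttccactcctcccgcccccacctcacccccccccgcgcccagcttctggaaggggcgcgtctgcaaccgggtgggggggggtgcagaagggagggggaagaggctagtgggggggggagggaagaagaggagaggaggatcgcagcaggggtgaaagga
Calcr first start, chr6:3764714-3764963, minus strand: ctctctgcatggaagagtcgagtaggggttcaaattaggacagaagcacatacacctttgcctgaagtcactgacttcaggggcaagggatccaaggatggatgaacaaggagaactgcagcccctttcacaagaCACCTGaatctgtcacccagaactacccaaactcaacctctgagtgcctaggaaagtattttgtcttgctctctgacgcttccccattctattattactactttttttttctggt
Calcr second start, chr6:3763624-3763873, minus strand: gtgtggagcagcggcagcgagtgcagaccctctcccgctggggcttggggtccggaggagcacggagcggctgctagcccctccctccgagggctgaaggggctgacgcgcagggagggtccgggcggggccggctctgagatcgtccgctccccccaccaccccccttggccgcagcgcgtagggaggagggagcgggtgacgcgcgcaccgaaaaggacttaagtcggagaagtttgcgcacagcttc
Myf5, chr10:107486135-107486384, minus strand: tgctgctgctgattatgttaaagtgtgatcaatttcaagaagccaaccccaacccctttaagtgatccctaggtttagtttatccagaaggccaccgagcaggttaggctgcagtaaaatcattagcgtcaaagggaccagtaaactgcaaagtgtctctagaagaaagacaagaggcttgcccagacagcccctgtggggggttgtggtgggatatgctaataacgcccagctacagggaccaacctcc
Cdh15, chr8:122848124-122848373, plus strand: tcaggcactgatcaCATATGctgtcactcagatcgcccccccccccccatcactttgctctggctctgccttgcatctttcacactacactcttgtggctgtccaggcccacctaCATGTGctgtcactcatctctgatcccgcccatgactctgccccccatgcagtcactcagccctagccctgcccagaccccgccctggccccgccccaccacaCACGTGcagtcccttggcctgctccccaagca
An E-box was present in 3 of the 7 stretches, those of Spry1, of Cdh15 and of the first Calcr start, and in 66.2% of the 32851 starts in the table. The RBPJ core TGGGAA, searched on both strands, was in 0 of the 7 stretches and in 21.6% of all starts. GC content was 46.0% before the first Calcr start and 70.8% before the second, 48.8% for Myf5, 65.2% for Pax7 and 62.0% for Cdh15. A match or its absence in such a window describes the letters only.

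The first question was how high the genes stood in young muscle. To compare genes, CPM were divided by the exonic length of the gene. At 6 months the mean over 64 libraries was 20.4 CPM per kb for Sdc4, 5.83 for Spry1, 2.74 for Cdh15, 2.44 for Heyl, 0.949 for Myf5, 0.508 for Pax7 and 0.197 for Calcr. The 3 genes most restricted to satellite cells stood lowest. Their reads were few: a library held 20 to 641 Pax7 reads (median 170), 25 to 737 Myf5 reads (median 101) and 0 to 271 Calcr reads (median 32), against 1150 to 134248 for Sdc4 (median 3382). Calcr had 0 reads in 1 male and 1 female library of the tibialis anterior at 27 months, where a count of 0 allows up to 0.0519 and 0.0507 CPM (3 reads, counting error only).

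**Figure D1:**
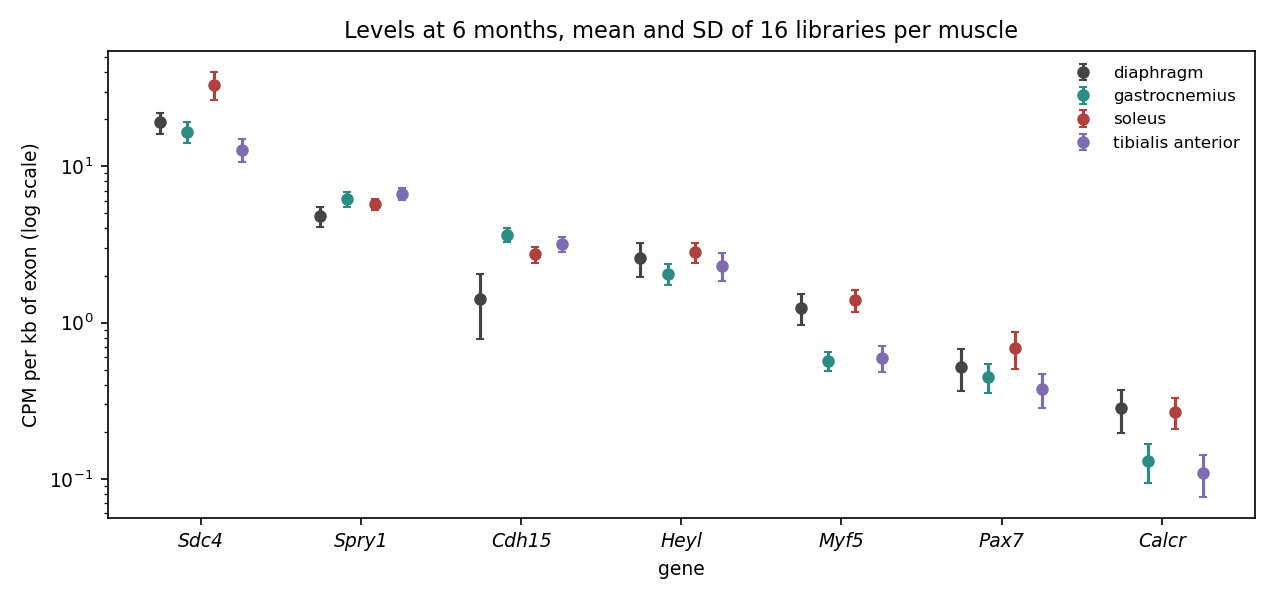
Level of each satellite cell gene at 6 months in CPM per kb of exon on a log axis, with points for the mean and bars for the SD of 16 libraries (both sexes) in each of 4 muscles. Sdc4 stands highest and Calcr lowest in every muscle, and Calcr and Myf5 are higher in diaphragm and soleus than in gastrocnemius and tibialis anterior.

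Among the muscles, Calcr at 6 months was 1.105 ± 0.333 CPM in diaphragm, 1.04 ± 0.233 in soleus, 0.511 ± 0.141 in gastrocnemius and 0.427 ± 0.126 in tibialis anterior (mean ± SD, n = 16). The step between soleus and gastrocnemius was larger than the SDs, while the other neighbours overlapped within 1 SD. Myf5 was 2.89 ± 0.460 CPM in soleus, 2.58 ± 0.580 in diaphragm, 1.24 ± 0.240 in tibialis anterior and 1.19 ± 0.169 in gastrocnemius, and its step lay between diaphragm and tibialis anterior. Pax7 was 4.05 ± 1.09 CPM in soleus, 3.04 ± 0.913 in diaphragm, 2.62 ± 0.543 in gastrocnemius and 2.21 ± 0.540 in tibialis anterior, and no neighbours were separated by their SDs. Cdh15 had another order, with 11.9 ± 1.29 CPM in gastrocnemius, 10.3 ± 1.099 in tibialis anterior, 8.88 ± 1.01 in soleus and 4.62 ± 2.05 in diaphragm. Sdc4 was 81.8 ± 16.9 CPM in soleus and 31.4 ± 5.29 in tibialis anterior.

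These differences were tested against the gastrocnemius with the quasi-likelihood test of edgeR, both sexes together and sex as a term. P-values were adjusted over all genes by Benjamini-Hochberg, and a gene was called with a fold above 1.5 and an adjusted p below 0.05. Of 21 gene and muscle pairs, 7 were called. In diaphragm, where 51.4% of all genes were called in either direction, Calcr was higher by a log2 fold change of 1.15 (SE 0.15, edgeR adjusted p = 5.00e-10) and Myf5 by 1.15 (SE 0.10, edgeR adjusted p = 1.02e-16), while Cdh15 was lower at -1.32 (SE 0.19, edgeR adjusted p = 1.25e-08). Without the 6 libraries low in GC-rich genes these values were 1.02, 1.12 and -1.14. In soleus (27.3% of all genes called) Myf5 was higher by 1.29 (SE 0.10), Calcr by 1.03 (SE 0.15), Sdc4 by 1.00 (SE 0.08) and Pax7 by 0.63 (SE 0.14, edgeR adjusted p = 0.000118). In tibialis anterior (9.69% called) edgeR called 0 of the 7 genes, as did limma and DESeq2, with 1 gene lower and 1 higher at an unadjusted p under 0.05. Scaling to library totals in place of TMM moved the median gene by 0.73 on the log2 scale in diaphragm, 0.35 in soleus and -0.17 in tibialis anterior. Under it Spry1 turned from -0.33 to 0.40 in diaphragm and from -0.10 to 0.25 in soleus, and Cdh15 in diaphragm came to -0.57 (edgeR adjusted p = 0.00995), inside the fold limit.

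The main comparison set 27 months against 6 months in each of the 8 sets of sex and muscle. Calcr fell most, in 5 of 8 sets, with log2 fold changes down to -2.06. Pax7 fell in the tibialis anterior of both sexes, Myf5 in the diaphragm of both sexes and Heyl in the female diaphragm, while Spry1, Cdh15 and Sdc4 were called in no set at this age. In males 5 of 28 gene and muscle pairs were called lower, and in females 5 of 28. The share of all genes called lower was 1.44% in male diaphragm (2 of the 7 genes), 1.53% in male gastrocnemius (1 of 7), 0.378% in male soleus (0 of 7) and 1.29% in male tibialis anterior (2 of 7). In females it was 0.692% in diaphragm (3 of 7), 0.898% in gastrocnemius (0 of 7), 2.41% in soleus (0 of 7) and 1.08% in tibialis anterior (2 of 7). None of the 56 pairs was called higher by edgeR, limma or DESeq2, with Sdc4 higher at an unadjusted p under 0.05 in the male gastrocnemius and male tibialis anterior. The pairs without a call had smaller estimates or wider errors, which does not show that they did not change.

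**Figure D2:**
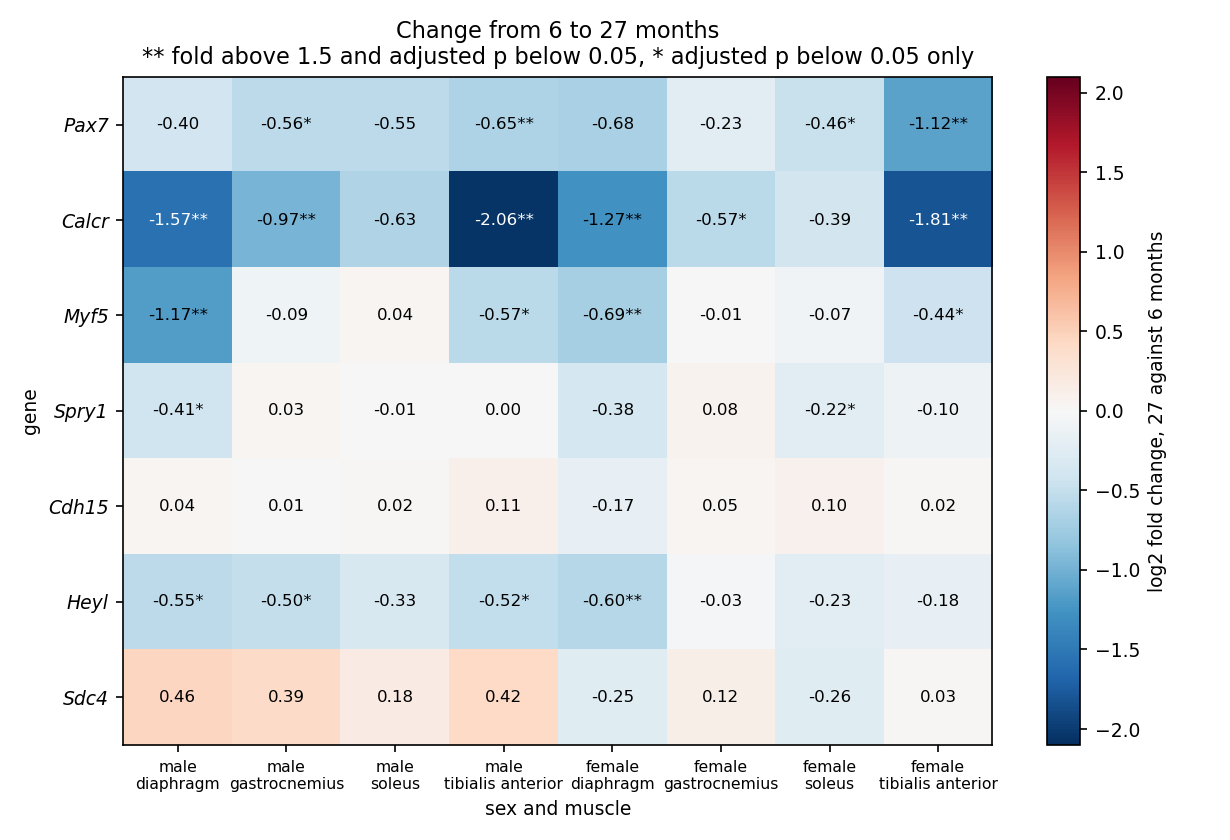
Heat map of log2 fold changes from 6 to 27 months (colour scale in log2 units) for 7 genes in 8 sets of sex and muscle, with 2 stars for a fold above 1.5 and an adjusted p below 0.05 and 1 star for the adjusted p alone. The row of Calcr is the most negative, from -2.06 to -0.39, and the row of Cdh15 stays between -0.17 and 0.11.

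The sample numbers in the labels fall into runs whose meaning is not given, and the 27 month comparisons were repeated within the largest run of each set, with 6 libraries at 6 months and 6 or 8 at 27 months. The male diaphragm had too few libraries in its largest run. Calcr was called in the same 4 of the other sets, at -2.40 in the male and -2.13 in the female tibialis anterior, -1.23 in the male gastrocnemius and -1.32 in the female diaphragm, and in the female gastrocnemius at -0.65 (edgeR adjusted p = 0.0126). Pax7 kept its calls in the tibialis anterior, at -0.64 in males and -1.12 in females, and was also called in the male gastrocnemius (-0.59, edgeR adjusted p = 0.00430). Myf5 was called in the female diaphragm (-0.81) and in the male tibialis anterior (-0.74, edgeR adjusted p = 0.00454). Heyl in the female diaphragm was -0.60 and lost its call (edgeR adjusted p = 0.0891).

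Calcr encodes a receptor whose signal keeps satellite cells quiescent. In the male tibialis anterior its CPM was 0.334, 0.464 and 0.665 (lowest, median, highest of 8) at 6 months and 0, 0.113 and 0.203 (of 10) at 27 months. The groups did not overlap, and the log2 fold change was -2.06 (SE 0.38, edgeR adjusted p = 0.000123). The share of all genes with no overlap between these 2 ages was not counted, here or below, so a lack of overlap describes the values only. In the female tibialis anterior it was 0.190, 0.410 and 0.520 CPM at 6 months and 0, 0.120 and 0.220 at 27 months. Here 9 of the 10 old libraries lay below the lowest young library, and the log2 fold change was -1.81 (SE 0.35, edgeR adjusted p = 0.000161). The median 27 month library of the tibialis anterior held 6 Calcr reads in males and 6.5 in females, so the value of a single library is imprecise.

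Calcr also fell in the diaphragm of both sexes. Male libraries had 0.795, 1.08 and 1.84 CPM (lowest, median, highest) at 6 months and 0.0975, 0.370 and 0.680 at 27 months. Female libraries had 0.693, 0.972 and 1.63 CPM at 6 months and 0.278, 0.444 and 0.679 at 27 months. In neither sex did young and old overlap. The log2 fold changes were -1.57 in males (SE 0.41, edgeR adjusted p = 0.0148) and -1.27 in females (SE 0.28, edgeR adjusted p = 0.00690), and -1.36 (edgeR adjusted p = 0.0328) and -1.17 (edgeR adjusted p = 0.0118) without the 6 libraries low in GC-rich genes. Without the old male library with liver transcripts alone it was -1.50 (edgeR adjusted p = 0.0165) in males. In the male gastrocnemius the medians were 0.473 and 0.230 CPM, with 7 of 10 old libraries below every young one and a log2 fold change of -0.97 (SE 0.26, edgeR adjusted p = 0.00500). In the female gastrocnemius the difference was -0.57 (SE 0.18, edgeR adjusted p = 0.0129), inside the fold limit. In soleus it was -0.63 (SE 0.39) in males and -0.39 (SE 0.28) in females with edgeR adjusted p of 0.498 and 0.351, and old and young libraries overlapped widely.

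The fall of Calcr in the tibialis anterior was reached by 18 months. Male medians in this muscle were 0.464, 0.325, 0.0821, 0.171, 0.151 and 0.113 CPM at the 6 ages in order. Female medians were 0.410, 0.158, 0.122, 0.115, 0.117 and 0.120 CPM, and the female median was already low at 12 months. From 18 months on every older age was called in this muscle in both sexes, while 12 months was called in neither. The gastrocnemius was called at 18, 21 and 27 months in males and at 18 months in females, and the diaphragm at 27 months in males and at 24 and 27 months in females. Over 5 older ages and 8 sets, edgeR called Calcr lower in 15 of 40 comparisons, which share their 6 month libraries.

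**Figure D3:**
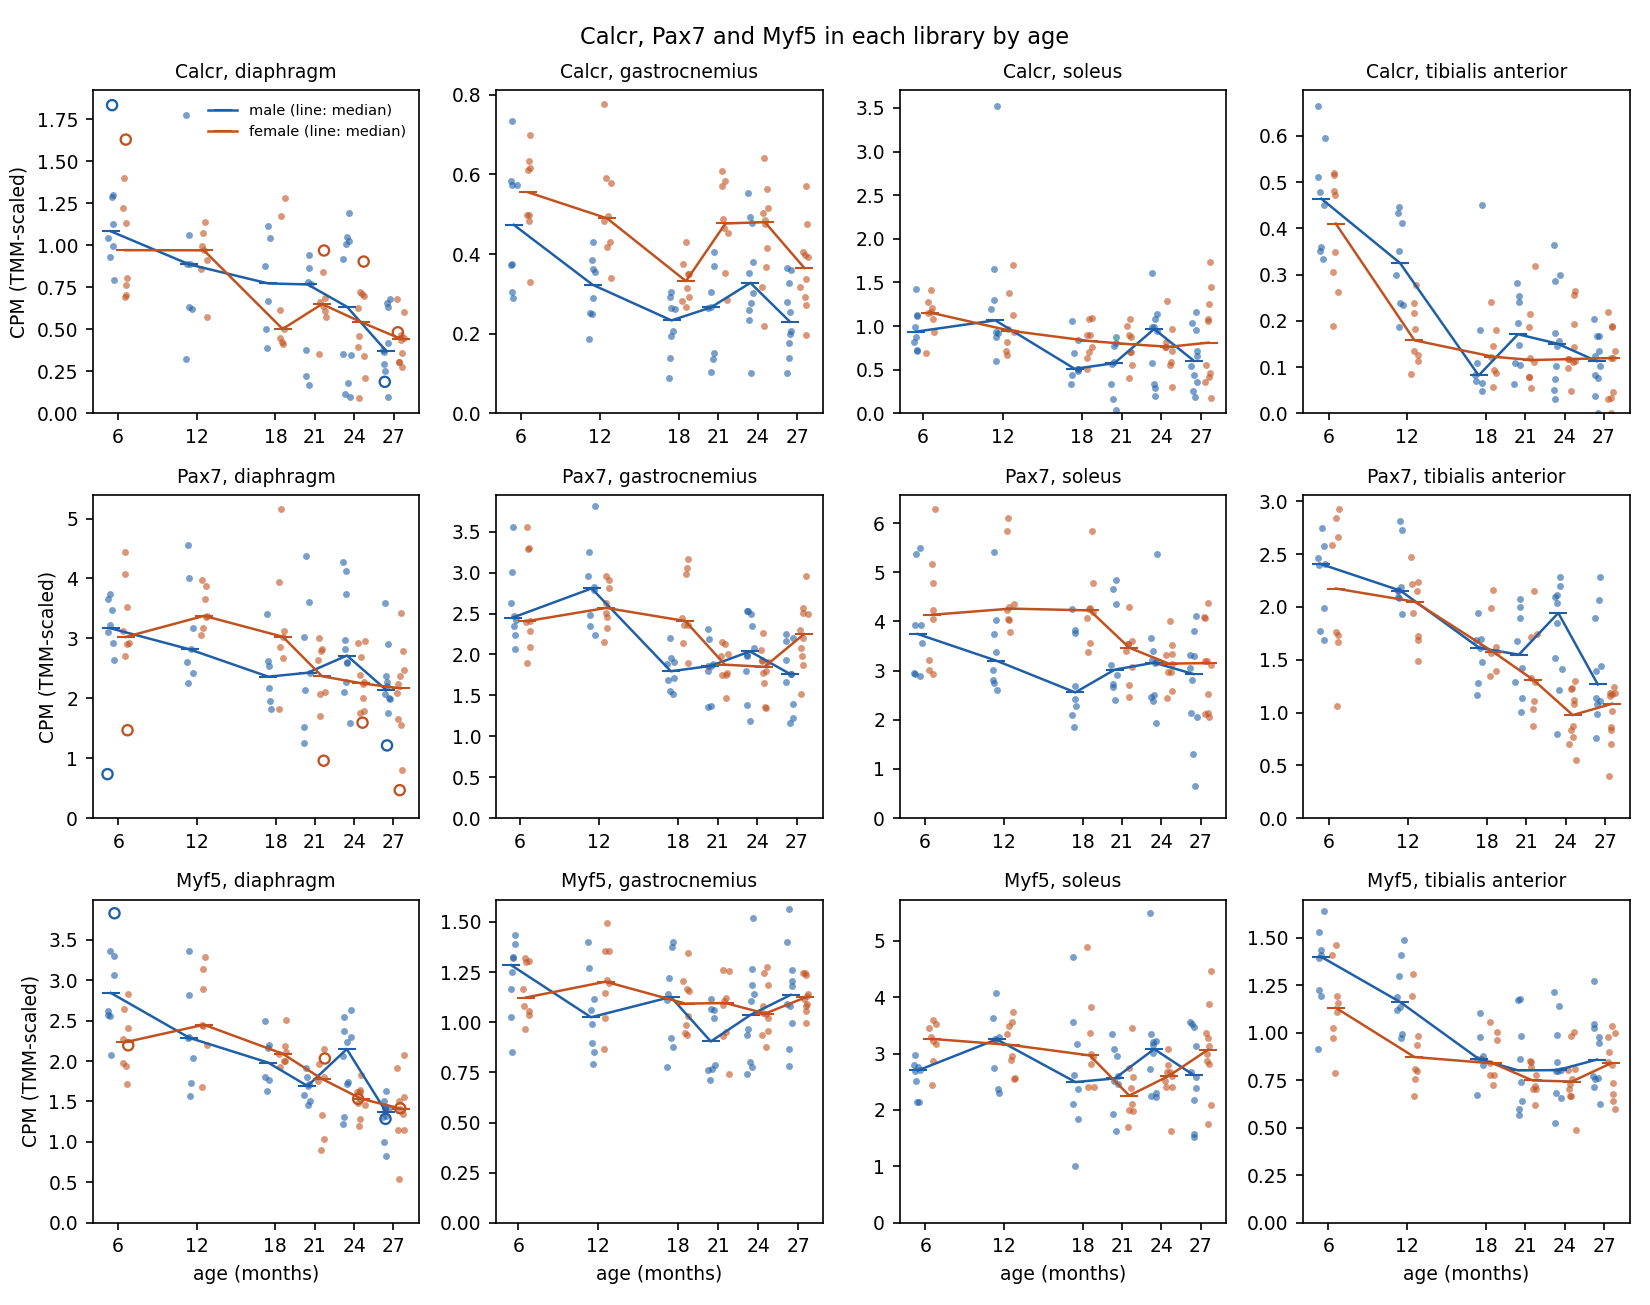
Normalised level (CPM) of Calcr, Pax7 and Myf5 against age in months in 4 muscles, each point a library, males blue and females orange, lines through the medians, with open circles for the 6 diaphragm libraries low in GC-rich genes. Calcr in the tibialis anterior drops to a median of 0.0821 CPM in males and 0.122 CPM in females by 18 months, and Pax7 in the female tibialis anterior reaches 0.976 CPM at 24 months.

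Pax7, the defining factor of the cells, changed most in the tibialis anterior. Female libraries had 1.06, 2.17 and 2.93 CPM (lowest, median, highest) at 6 months and 0.400, 1.08 and 1.24 at 27 months. Of the old libraries, 5 of 10 lay below the lowest young one. The log2 fold change was -1.12 (SE 0.18, edgeR adjusted p = 7.04e-06). In the same libraries the sum of 8 liver markers was 1.64 to 22.7 CPM (median 13.4) at 6 months and 4.86 to 617 CPM (median 73.7) at 27 months, and its part in the result was not tested. Male libraries of this muscle had 1.68, 2.40 and 2.74 CPM at 6 months and 0.761, 1.27 and 2.29 at 27 months, a log2 fold change of -0.65 (SE 0.17, edgeR adjusted p = 0.00614). That call was lost without 27 month replicate 3 (-0.58, edgeR adjusted p = 0.0130), when the fold came inside the limit.

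In the female tibialis anterior Pax7 had medians of 2.17, 2.05, 1.57, 1.31, 0.976 and 1.08 CPM at the 6 ages in order, and was called at 21, 24 and 27 months. In males the medians were 2.40, 2.15, 1.61, 1.55, 1.94 and 1.27 CPM, with the 24 month group above its neighbours. Outside this muscle Pax7 was lower at 27 months in all 6 other sets, with no call. The difference passed the adjusted p alone in the male gastrocnemius (-0.56, edgeR adjusted p = 0.00153) and the female soleus (-0.46, edgeR adjusted p = 0.0201). In the female diaphragm it was -0.68 (SE 0.23, edgeR adjusted p = 0.124), and -0.67 (SE 0.18, edgeR adjusted p = 0.0257), a call, without the 6 libraries low in GC-rich genes. Pax7 in these 6 libraries was 0.467 to 1.59 CPM, against 0.804 to 5.16 CPM (median 2.75) in the other 92 diaphragm libraries.

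Myf5, the factor that primes the cells for commitment, changed most in the diaphragm. Male diaphragm libraries had 2.08, 2.84 and 3.83 CPM (lowest, median, highest) at 6 months and 0.829, 1.37 and 1.63 at 27 months. The groups did not overlap, and the log2 fold change was -1.17 (SE 0.15, edgeR adjusted p = 2.58e-06). Female libraries had 1.71, 2.23 and 2.82 CPM at 6 months and 0.536, 1.41 and 2.07 at 27 months, and 8 of the 10 old libraries lay below every young one. The log2 fold change was -0.69 (SE 0.16, edgeR adjusted p = 0.0137). In the tibialis anterior Myf5 differed by -0.57 in males (edgeR adjusted p = 0.00452) and -0.44 in females (edgeR adjusted p = 0.00833), inside the fold limit at 27 months, but it was called at 18, 21 and 24 months in males and at 21 months in females. In gastrocnemius and soleus its log2 fold change was between -0.09 and 0.04. The diaphragm was also called at 21 months in males and at 24 months in females. Over all ages edgeR called Myf5 lower in 8 of 40 comparisons, DESeq2 in 8 and limma in 5.

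Heyl, a transcriptional repressor downstream of Notch, was lower at 27 months in all 8 sets and was called in 1. It was also called lower in 1 set at 18 months and in 1 at 24 months. The fall was not steady in every set: male diaphragm medians were 11.1, 9.72, 8.00, 11.1, 11.1 and 7.31 CPM at the 6 ages in order. In the female diaphragm its CPM was 6.48, 13.5 and 15.2 (lowest, median, highest) at 6 months and 4.99, 8.45 and 11.6 at 27 months. The lowest young value is 1 of the 6 libraries low in GC-rich genes, and the other young libraries began at 12.1 CPM, above every old one. The log2 fold change was -0.60 (SE 0.14, edgeR adjusted p = 0.00986), a fold of 1.51 at the limit, and the call was lost when any of 7 single libraries was left out (6 months replicates 3, 4 and 6, 27 months replicates 0, 6, 7 and 8), with values from -0.58 to -0.54. In the male diaphragm it was -0.55 (edgeR adjusted p = 0.0365), and -0.61 (edgeR adjusted p = 0.0128), a call, without the 6 libraries. The male gastrocnemius (-0.50, edgeR adjusted p = 0.00359) and male tibialis anterior (-0.52, edgeR adjusted p = 0.00578) passed the adjusted p alone.

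Spry1, the inhibitor of receptor tyrosine kinase signalling that returns dividing cells to quiescence, was called in 0 of 40 comparisons by edgeR, limma and DESeq2, with 12 lower and 0 higher at an unadjusted p under 0.05. Its largest difference at 27 months was in the male diaphragm, with medians of 14.9 CPM at 6 months and 11.3 CPM at 27 months. There 6 of 10 old libraries lay below the lowest young library. The log2 fold change was -0.41 (SE 0.12, edgeR adjusted p = 0.0320), and -0.35 (edgeR adjusted p = 0.0522) without the 6 libraries low in GC-rich genes. In gastrocnemius and tibialis anterior of both sexes it was between -0.10 and 0.08.

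The surface proteins gave no lower call. Cdh15, M-cadherin, had log2 fold changes from -0.17 to 0.11 at 27 months and was called in 0 of 40 comparisons by edgeR, limma and DESeq2, with 0 lower and 4 higher at an unadjusted p under 0.05. Its lowest values were in the 6 diaphragm libraries low in GC-rich genes, which had 0.0524 to 1.26 CPM of Cdh15, against 2.18 to 8.35 CPM (median 5.47) in the other 92. The longest transcript of Cdh15 has the highest GC content of the 7 genes, 59.9%, and those of Calcr and Myf5 the lowest, 46.1% and 41.6%. Calcr in the same 6 libraries was 0.188 to 1.84 CPM, within or just above the 0.091 to 1.78 CPM of the others over all ages. Within age and sex they held the highest Calcr at 6 months in males (1.84 CPM) and females (1.63 CPM). They also did in females at 21 months (0.970 CPM) and 24 months (0.904 CPM). At 27 months they held 0.188 CPM in males and 0.483 CPM in females, inside the range of their groups. Sdc4, a heparan sulphate proteoglycan, had log2 fold changes from -0.26 to 0.46 at 27 months with no call. Within the largest run of sample numbers it was called higher in the male gastrocnemius (0.71, edgeR adjusted p = 0.00665) and the male tibialis anterior (0.72, edgeR adjusted p = 0.00609), against 0.39 and 0.42 over all libraries. It was called higher in the male diaphragm at 21 months (1.28, edgeR adjusted p = 0.00638), which rested on the library with liver transcripts (348 CPM of Sdc4, the others of its group 42.0 to 102), and was 0.57 (edgeR adjusted p = 0.137) without it.

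**Figure D4:**
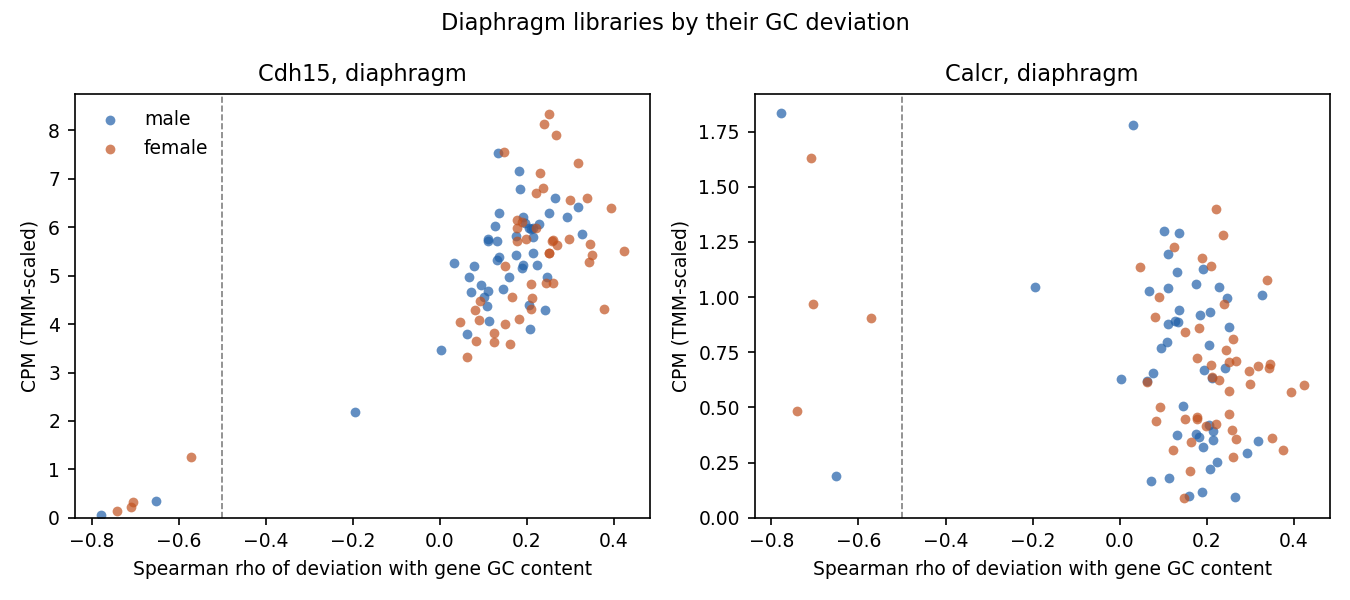
CPM of Cdh15 and Calcr in 98 diaphragm libraries against the GC correlation of each library, with a dashed line at -0.5. This is the Spearman correlation, across genes, of gene GC content with the deviation from the mean of the library's sex and muscle. The 6 libraries left of the line have 0.0524 to 1.26 CPM of Cdh15, below all others. In Calcr they overlap the others when all ages are pooled. The male and the female one at 6 months are each the highest of their age and sex (1.84 and 1.63 CPM).

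Over all 5 older ages, 15 of 140 gene, muscle and age comparisons were called lower in males, where 0.596% of all such comparisons were, and 15 of 140 in females, where 1.09% were. No gene was called at 12 months in 56 comparisons (6 lower and 1 higher at an unadjusted p under 0.05, 0 by limma and DESeq2). Few genes of any kind were called lower at that age. In a fit with the GC trend of each library removed, the most in a set was 10 of 15087, in the male gastrocnemius. A count of 0 in 56 therefore does not set these genes apart from others and does not date their change. In soleus edgeR and DESeq2 called 0 of 70 comparisons and limma 1, with 15 lower and 3 higher at an unadjusted p under 0.05. With the GC trend removed, 0 to 55 of 15198 genes were called lower at an older age in male soleus. In female soleus it was 1 to 562 of 15204. At such low shares, 0 of 70 does not show that these genes were spared in soleus. A straight line on age, fitted to all 6 ages, fell in 10 of 28 gene and muscle pairs in males and 15 of 28 in females at an adjusted p below 0.05 with no fold limit, when 8.00% and 12.4% of all genes fell. By gene, Pax7 and Calcr fell in 6 of 8 sets each, Heyl in 5, Myf5 in 4, Spry1 in 3 and Sdc4 in 1. Cdh15 fell in none, and Sdc4 rose in the male gastrocnemius and male tibialis anterior. Without the 6 diaphragm libraries the slope of Spry1 in the male diaphragm no longer passed (edgeR adjusted p = 0.0772, against 0.0476), and Sdc4 also fell in the female diaphragm (edgeR adjusted p = 0.00477, against 0.0580).

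The slopes place Calcr in the tibialis anterior first. Over the 21 months from youngest to oldest, its fitted log2 change was -1.93 in males (edgeR adjusted p = 1.01e-05) and -1.56 in females (edgeR adjusted p = 5.70e-05). Pax7 in the female tibialis anterior changed by -1.26 (edgeR adjusted p = 2.79e-08), the smallest p of the 7 genes, and in the male by -0.64 (edgeR adjusted p = 0.00144). Pax7 also fell in the female soleus (-0.60, edgeR adjusted p = 0.000418) and the gastrocnemius of both sexes (-0.63 in males, -0.43 in females). Myf5 in the diaphragm changed by -0.95 in males and -0.86 in females (edgeR adjusted p = 2.42e-05 and 0.000102). Sdc4 rose by 0.51 in the male gastrocnemius (edgeR adjusted p = 0.0112) and by 0.46 in the male tibialis anterior (edgeR adjusted p = 0.0168).

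Sexes were compared at 6 months and in their change. At 6 months 0 of 28 pairs were called by edgeR, limma or DESeq2 (3 lower and 2 higher in males at an unadjusted p under 0.05), where 2.89% of all genes were. Inside the fold limit, Cdh15 in the gastrocnemius was lower in males by a log2 fold change of -0.24 (SE 0.07, edgeR adjusted p = 0.0121) and Spry1 higher by 0.22 (SE 0.07, edgeR adjusted p = 0.0157). The change from 6 to 27 months differed between the sexes in 0 of 28 pairs by edgeR, limma and DESeq2 (2 lower and 2 higher in males at an unadjusted p under 0.05), where 1.02% of all genes differed. The female and male falls of Pax7 in the tibialis anterior are therefore not shown to differ.

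The change from 6 to 27 months was also compared between muscles, each against the gastrocnemius, with an adjusted p below 0.05 as the only limit. It differed in 4 of 42 pairs, where 2.22% of all genes differed, and all 4 were in the diaphragm. For Myf5 the log2 change in the diaphragm less that in the gastrocnemius was -1.05 in males (SE 0.22, edgeR adjusted p = 0.00128) and -0.67 in females (SE 0.19, edgeR adjusted p = 0.0230). In females it was -0.56 for Heyl (SE 0.16, edgeR adjusted p = 0.0292) and -0.45 for Spry1 (SE 0.11, edgeR adjusted p = 0.00853). Pax7 in the female tibialis anterior differed from the gastrocnemius by -0.91 (SE 0.25, edgeR adjusted p = 0.0626), and it passed without the 6 libraries low in GC-rich genes (edgeR adjusted p = 0.0118), when 7 of 42 pairs did. Sdc4 (-0.38, edgeR adjusted p = 0.0418) and Spry1 (-0.29, edgeR adjusted p = 0.0496) in the female soleus were then the other additions. This test treats the muscles as separate animals. With the replicate number within an age as a block, 6 of 42 pairs passed, the same 4 with Pax7 in the female tibialis anterior (-0.93, edgeR adjusted p = 0.0315) and Sdc4 in the female soleus (-0.37, edgeR adjusted p = 0.0370). For Calcr in the tibialis anterior the difference was -1.11 (SE 0.54) in males and -1.26 (SE 0.41) in females, with edgeR adjusted p of 1.00 and 0.184.

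Lists of genes with related roles were read in the same 27 month comparisons, pooled over the 8 sets. Over all genes, 1.21% of gene and set pairs were called lower and 2.96% higher, with a median log2 fold change of 0.00. Of 14 other satellite cell genes, 19 of 110 pairs were lower and 5 higher, with a median of -0.15. Chodl, a lectin-like membrane protein, was lower in 7 of 8 sets (-1.35 to -0.21) and Megf10, a Notch-linked membrane receptor, in 6 (-0.99 to -0.23). In the male tibialis anterior Chodl was 5.19, 8.18 and 10.1 CPM (lowest, median, highest) at 6 months and 2.49, 3.70 and 5.13 at 27 months, with no overlap. Fgfr4, an FGF receptor, was lower in 2 sets, among them the female tibialis anterior (-1.07, edgeR adjusted p = 8.86e-07), and the neurotrophin receptor Ngfr was higher in 3. The other 2 higher calls, Pax3 in the male tibialis anterior and Vcam1 in the male diaphragm, are named after their values were seen. In the male diaphragm Pax3 was called lower (-0.61, edgeR adjusted p = 0.0129). Without the 6 libraries low in GC-rich genes it was -0.55, inside the fold limit.

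Of 15 Notch pathway genes, 0 of 120 pairs were called by edgeR in either direction (13 lower and 16 higher at an unadjusted p under 0.05), with a median of 0.01, beside the lower Heyl. The other tools were not run on this list. For the receptors, ligands and partners around Calcr, 8 of 67 pairs were lower and 3 higher, with a median of -0.28. The lower ones were chains of collagen V, a ligand of the calcitonin receptor in satellite cells: Col5a1 in 4 sets (-0.95 to -0.20), Col5a2 in 3 and Col5a3 in 1. Calca, which encodes calcitonin and its related peptide, was called higher in both diaphragm sets, the 2 sets in which it was tested, and Adm in the female tibialis anterior, named after its value was seen. The female call of Calca was lost without the 6 libraries low in GC-rich genes (2.46, edgeR adjusted p = 0.0541, against 2.69 and 0.0475). Male diaphragm libraries had 0 to 0.059 CPM of Calca (median 0) at 6 months and 0 to 0.731 (median 0.193) at 27 months, and female libraries 0 to 0.120 (median 0.0357) and 0.0487 to 0.590 (median 0.395). With levels near 0 at 6 months, Calca likely passed the count filter only through older libraries. A higher call was then the likely outcome in these 2 sets, and no conclusion is drawn from it. Around Spry1, 1 of 96 pairs of FGF and Sprouty signalling was called, a higher Etv4 in the female gastrocnemius (0.71).

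Some genes of the later steps were called higher with age. Of 8 listed genes of myogenic commitment and fusion, 6 were tested. For these, 15 of 48 pairs were higher and 0 lower (0 lower at an unadjusted p under 0.05), with a median of 0.49. The embryonic myosin Myh3 was higher in 8 of 8 sets (0.66 to 2.83), and in 7 without the 6 diaphragm libraries, when the male diaphragm had 2.08 (edgeR adjusted p = 0.0618). Called higher too were myogenin (Myog) in 4, the perinatal myosin Myh8 in 2 and Myf6 in 1. The other tested genes of this list had no call. Myog and Myh3 are also induced in fibres that lose their nerve supply. For proliferation, 20 of 64 pairs were higher and 0 lower, with a median of 0.62, and Mki67 was higher in the female tibialis anterior by 2.02 (SE 0.40, edgeR adjusted p = 0.000163). Such genes are used by every dividing cell. For the satellite cell niche, 16 of 120 pairs were lower and 0 higher (4 higher at an unadjusted p under 0.05), with a median of -0.22, led by the collagen VI chains Col6a1 in 5 sets, Col6a2 in 3 and Col6a3 in 2.

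The lists gained more calls in the diaphragm than they lost when the 6 libraries low in GC-rich genes were left out. In 160 pairs of a related gene and a diaphragm set, 2 higher and 2 lower calls were lost while 2 higher and 8 lower ones were gained. Over the 8 sets the related lists went from 43 lower and 44 higher calls to 49 and 44. Among the genes named, Col5a1 was then lower in 6 sets, Col6a2 in 5 and Fgfr4 in 3. The marker lists of other cells, given next, lost 3 lower calls in 128 diaphragm pairs and gained 9 lower and 2 higher ones, and went from 29 lower and 27 higher calls to 35 and 29. Fibroblast markers were then lower in 25 pairs (5 in the female diaphragm, against 2), and macrophage markers higher in 9 (3 in the male diaphragm, against 1). Liver markers in the male diaphragm had a median log2 fold change of 2.78 with 0 calls, and of -4.28 with 3 lower calls without the 6 libraries, among which is the 27 month library with liver transcripts.

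**Figure D5:**
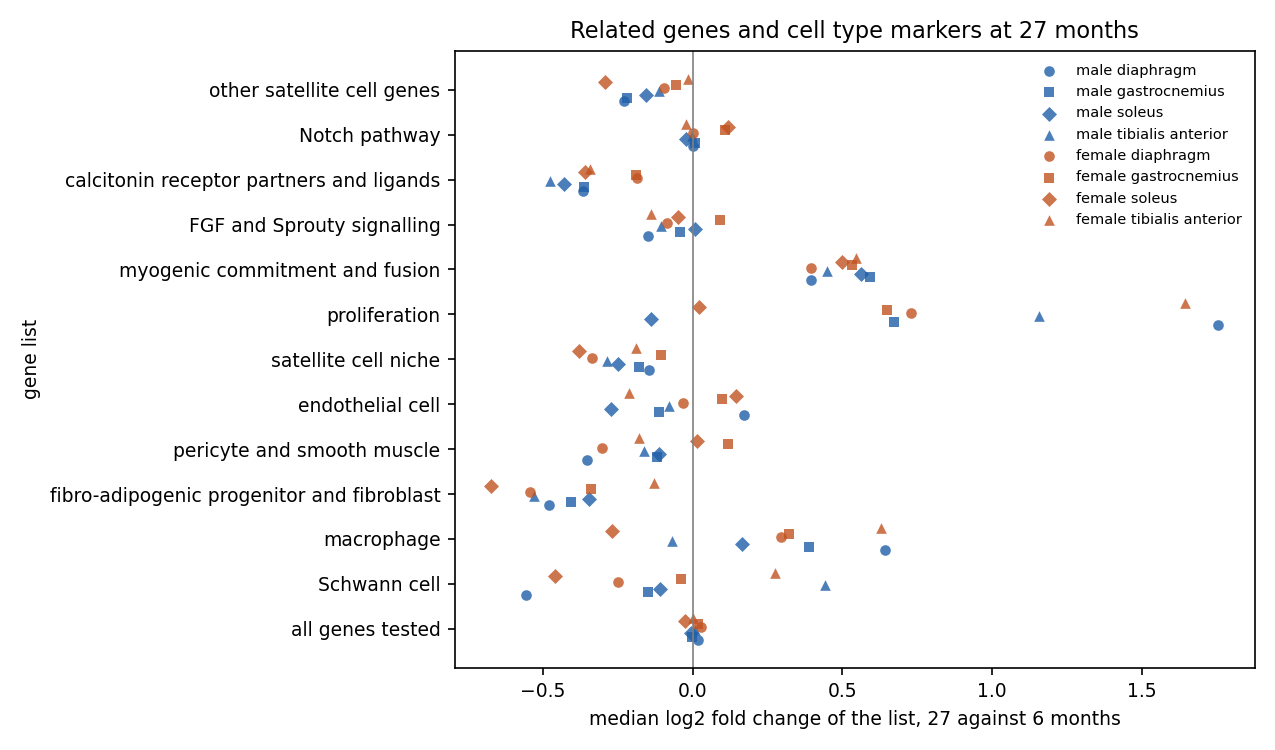
Median log2 fold change from 6 to 27 months of each related gene list and marker list (lines) in 8 sets of sex and muscle, with the median of all genes tested. Myogenic commitment is above 0 in all 8 sets, from 0.39 to 0.59, and the fibroblast markers are below 0 in all 8, from -0.67 to -0.13.

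Markers of the other cells of muscle moved with age too. Of 8 markers of fibro-adipogenic progenitors and fibroblasts, 22 of 64 pairs were lower and 0 higher, with a median of -0.46, and the collagens Col1a2 (7 sets), Col1a1 (6) and Col3a1 (5) led. The summed level of the 8 markers in the male tibialis anterior was 839 to 1311 CPM (median 1022) at 6 months. At 27 months it was 423 to 834 CPM (median 611), with no overlap. In the female tibialis anterior it was 712 to 1201 CPM (median 919) and 427 to 983 CPM (median 629), with overlap. In the male diaphragm it was 2028 to 2836 CPM (median 2282) and 1233 to 2344 CPM (median 1602). Macrophage markers were higher in 7 of 64 pairs (median 0.29, Cd68 in 4 sets). Endothelial markers were called in 0 of 64 pairs (12 lower and 5 higher at an unadjusted p under 0.05) and pericyte and smooth muscle markers in 2, both lower (Higd1b in the female and Rgs5 in the male diaphragm, the latter inside the fold limit at -0.53 without the 6 libraries). Schwann cell markers were lower in 2 of 48 pairs and higher in 2, adipocyte markers higher in 2 of 48, fast fibre markers lower in 1 of 48, slow fibre markers higher in 8 of 48 and lower in 1, and liver markers higher in 8 of 64 and lower in 1. All 8 higher liver calls were in the female tibialis anterior, as were 3 of the 8 higher slow fibre calls, 4 of the 7 macrophage calls and both adipocyte calls. No marker was at 0 in all libraries of a group. The part of these cells in the changes of the 7 genes was not tested.

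Within an age, libraries high in Pax7 could be set against the other genes. For each of the 8 sets, deviations of log2 CPM from the age mean were correlated between Pax7 and the 6 other genes, in 48 to 52 libraries of a set (permutation test with 100000 resamples, 48 correlations, Benjamini-Hochberg adjusted). Sdc4 ran against Pax7 in the male tibialis anterior (r = -0.58, rho = -0.57, adjusted permutation p = 0.000192) and the male gastrocnemius (r = -0.54, rho = -0.53, adjusted permutation p = 0.00024). Without the 2 libraries farthest in Pax7 these were -0.53 and -0.44. Within the largest run of sample numbers r was -0.77 (n = 35) and -0.57 (n = 36). Calcr ran with Pax7 in 1 set, with r = 0.41 and rho = 0.33 in the male tibialis anterior (adjusted permutation p = 0.0109), 0.40 within the largest run and 0.21 without the 2 farthest libraries, and it did not pass in the other 7 sets.

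Cdh15 and Heyl ran with Pax7 in the female soleus. For Cdh15 r was 0.49 and rho 0.43 (adjusted permutation p = 0.00126), with 0.46 without the 2 farthest libraries and 0.41 within the largest run (n = 40). For Heyl r was 0.45 and rho 0.42 (adjusted permutation p = 0.00317), with 0.43 and 0.39. In the female diaphragm the correlation of Cdh15 with Pax7 was 0.71, and 0.07 without the libraries low in GC-rich genes, so it rests on those libraries. There Heyl had r = 0.73 with them and 0.56 without. In all, 15 positive and 4 negative correlations of 48 passed, and 10 positive and 5 negative did without these libraries. All 4 negative ones were with Sdc4. The share of all genes that pass against Pax7 by this test was not counted. These counts therefore do not show that the satellite cell genes run with Pax7 more often than other genes do.

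Among 14181 genes tested in all 8 sets, the gene whose deviations were most like those of Pax7 was Fgfr4, with a mean r of 0.587 over the sets, followed by Tnk2 (0.537), Cxxc5 (0.531), Dgkz (0.520) and Plekhh3 (0.512). By the same mean r with Pax7, Heyl ranked 128, Cdh15 190, Spry1 1882, Myf5 1952, Calcr 4181 and Sdc4 13369. Without the 6 diaphragm libraries Fgfr4 remained first at 0.516 and Cxxc5 was second at 0.464. For Calcr the most alike were Sytl2 (0.314), Abca8a (0.286), Abca9 (0.285), Megf10 (0.282) and Gas1 (0.275), and without the 6 libraries Sytl2 remained first at 0.308, with Col6a6 (0.291) and Lamb1 (0.285) next. The values for Calcr, which had a median of 32 reads a library, were lower than those for Pax7.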

How the data were processed

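RNA was sequenced as strand-specific, rRNA-depleted libraries and processed on mm10 with the ArrayStudio pipeline and a RefSeq-based gene model. The authors deposited raw read counts per gene, with 1 table for each library, and no column was left unused (0). The sources used here give no version of the pipeline. Library totals ran from 38583802 to 300089909 counts, and intervals and floors cover counting error only. Of the 329 symbols on more than 1 row, the row with the most counts was kept (0.0335% of counts left out). No 2 libraries of a group were identical (0 of 1552 pairs). The 7 genes and the gene lists were chosen with earlier results of these data known.

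Counts were tested with edgeR 4.0.16 in R 4.3.3 (TMM, filterByExpr, quasi-likelihood test, Benjamini-Hochberg over all genes), in 1 fit of 6 ages per sex and muscle. A call needed a fold above 1.5 and an adjusted p below 0.05. Trends and interactions needed the adjusted p only. Scripts were tested on simulated counts. All 7 genes are named, with up to 4 genes of each list that were called in the most sets and the 5 genes most like Pax7 and Calcr. Replicate numbers were not taken as pairs, since no label ties them to a mouse and not every same-numbered pair of libraries correlated above 0.1. The fits with the number as a block are alternatives. Alternatives were limma 3.58.1, DESeq2 1.42.0, other scalings and filters, and left-out libraries. Correlations were computed in Python 3.11.15 with scipy 1.17.1. The GC correction, the scaling without TMM, the raw library sizes and the leaving out of the 6 diaphragm libraries and of the library with liver transcripts were chosen after seeing the data. P-values measure the spread between libraries of a group, each from 1 animal.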

Additional observations from a re-analysis of the deposited data

Results flagged for a closer look

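In 27 of 336 groups of a gene, sex, muscle and age, the highest or lowest library lay farther from the others than Dixon's 95% limit allows, and chance alone marks about 1 in 20 groups. Of these, 8 come from the diaphragm libraries low in GC-rich genes. They are Pax7 at 0.734 CPM and Cdh15 at 0.0524 CPM in the male diaphragm at 6 months, Spry1 at 8.74, Heyl at 6.48 and Sdc4 at 32.0 CPM in the female diaphragm at 6 months, Spry1 at 8.18 and Cdh15 at 0.323 CPM in the female diaphragm at 21 months, and Cdh15 at 0.131 CPM in the female diaphragm at 27 months. All 8 are low.

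The library with liver transcripts gave Sdc4 at 348.465 CPM in the male diaphragm at 21 months. In the female gastrocnemius at 27 months, replicate 0 was high in Cdh15 (19.2 CPM) and Heyl (13.4 CPM) and low in Sdc4 (28.5 CPM). In the soleus, high values were Pax7 at 5.37 CPM and Myf5 at 5.50 CPM in males at 24 months, Calcr at 3.52 CPM in males at 12 months, Cdh15 at 12.6 CPM in males at 18 months and at 11.2 CPM in females at 12 months, and Sdc4 at 164 CPM in males at 27 months. Low values there were Myf5 at 1.62 CPM in females at 24 months and Cdh15 at 6.59 CPM in females at 21 months.

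In the tibialis anterior the high values were Calcr at 0.450 CPM in males at 18 months, Cdh15 at 11.9 CPM in males at 21 months and Sdc4 at 52.2 CPM in females at 12 months. In the gastrocnemius they were Cdh15 at 17.6 CPM and 13.0 CPM in males at 12 and 21 months and Heyl at 10.5 CPM in females at 12 months. In the female diaphragm at 24 months Spry1 was high at 17.2 CPM.

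The change from 6 to 27 months differed between the diaphragm and the gastrocnemius by an interaction term (log2 scale) for Myf5 in males (-1.05) and females (-0.67), Heyl in females (-0.56) and Spry1 in females (-0.45). The cause was not tested.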

How the results depend on the processing

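Of 5971 values recomputed under an alternative, 5716 kept their side of the threshold or stayed within the limits set for counts and levels, 102 lost a call, 121 gained one, 31 counts or levels moved and 1 reversed. In 204 of the 5716 and 2 of the 31, with no call on either side, the sign differed, and DESeq2 gave no adjusted p for 8. With the GC trend of each library removed, 326 of 336 age and trend values kept their side of the threshold, 7 gained a call and 3 lost one. Lower calls at 27 months (5 in males and 5 in females) became 2 and 1 under Bonferroni adjustment, 11 and 9 with no fold limit, 5 over 3 of 4 muscles in males within the largest run of sample numbers, and 3 in females with only the 6 and 27 month libraries. Leaving out 1 library gave 4 to 6 in each sex. Over 5 older ages (15 and 15) they became 2 and 2 under Bonferroni adjustment and 26 and 33 with no fold limit, and 27 in females on library totals without TMM. Dropping TMM also moved the count of all genes called lower in females at 27 months. For soleus this count went from 370 to 1015 and for diaphragm from 112 to 213. It went from 138 to 90 for gastrocnemius and from 157 to 129 for tibialis anterior. Whether the rise to 27 is particular to the 7 genes was not tested. Falling trends (10 and 15) became 3 and 5 under Bonferroni adjustment. With no fold limit 12 muscle differences and 2 sex differences passed. Without TMM 1 interaction of sex and age and 8 of muscle and age passed, the latter 0 under Bonferroni adjustment and 7 without the 6 diaphragm libraries. Positive Pax7 correlations (15) became 25 on raw library sizes and 10 without these libraries. Lower calls in related lists (43) became 49 without them, and higher ones stayed at 44 in number. The trend of Cdh15 in the female soleus reversed to -0.0095 per month without TMM (edgeR adjusted p = 0.0347). The cause was not tested.

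The labels give same-numbered libraries nothing in common but the number. Deviations of same-numbered libraries at different ages correlated over 0.1 in 25.0% of pairs, against 21.4% of other pairs. Between muscles of an age this was 47.1% against 14.0% for gastrocnemius and tibialis anterior, 44.6% against 8.92% for soleus and tibialis anterior and 32.0% against 14.4% for gastrocnemius and soleus, and 6.19% to 15.3% against 9.51% to 13.6% for pairs with the diaphragm. For the leg muscles this is a hint of pairing from the data, not from the design, and the lowest correlation of a same-numbered pair among them was -0.47. With the replicate block 5 and 5 calls at 27 months, 15 and 12 over 5 ages, 9 and 14 trends, 7 muscle differences and 6 interactions of muscle and age passed.

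With 0 to 271 Calcr reads per library, depth limits single values of Calcr more than those of the other genes.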
